A study of Homo sapiens with 9 samples.

Results

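DEPP1, KLHL24, FBXO32, PDK4, TXNIP, SESN3, PIK3IP1, CCNG2, INSR and BCL6 are 10 genes that have been described as targets of the FOXO transcription factors, and they were followed through untreated HepG2 cells and HepG2 cells given 2 doses of eliglustat. They were taken by symbol from the 62703 gene identifiers of each file, and all 10 matched and were among the 17623 genes with enough counts to be tested. FBXO32 and PDK4 reached that minimum only through the treated libraries. The 10 genes had been picked with their levels in these same libraries known, and so their levels, changes and dose patterns are given as a description with no p-value. HepG2 is an established human hepatocellular carcinoma line, and eliglustat inhibits glucosylceramide synthase, the enzyme that starts the making of most glycosphingolipids. The 3 groups were untreated HepG2, HepG2 with eliglustat at 20 µM for 72 h and HepG2 with eliglustat at 30 µM for 72 h, with 3 RNA sequencing libraries each. No vehicle treatment and no time are named for the untreated cells. All 9 libraries came from 1 line, and nothing says that the libraries of a group were grown as separate cultures, so errors and p-values cover only the spread between libraries, which may be technical.

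FOXO proteins are transcription factors held in check by insulin and growth factor signals. Insulin binds its receptor, PI3-kinase and AKT become active, and AKT phosphorylates FOXO, which then leaves the nucleus bound to 14-3-3 proteins. When that signal is weak, FOXO enters the nucleus, binds DNA at a core of the letters GTAAACA and, in liver, turns on genes of fasting metabolism, proteolysis, autophagy and cell cycle arrest. Several of these genes also answer to other factors (TXNIP to glucose-sensing MondoA and ChREBP, PDK4 to PPARs and glucocorticoids), so their RNA level alone does not report FOXO activity, which was not measured.

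The promoters of DEPP1 and TXNIP are shown because they were the 2 members with the FOXO core before the annotated start. RefSeq windows on GRCh38.p14, from 250 bases before to 50 bases after each start, were found for 9 of the 10 members (12 windows, FBXO32 having none). They were searched on both strands for GTAAACA and for CAAAACA, the core of the insulin response element; the letters differ, so no match counts under both. Sequences run 5′ to 3′ on the minus strand, both genes being transcribed from it, and stop where the GENCODE 29 gene begins. Capitals mark the GTAAACA match.
DEPP1 at chr10:44978811-44979059: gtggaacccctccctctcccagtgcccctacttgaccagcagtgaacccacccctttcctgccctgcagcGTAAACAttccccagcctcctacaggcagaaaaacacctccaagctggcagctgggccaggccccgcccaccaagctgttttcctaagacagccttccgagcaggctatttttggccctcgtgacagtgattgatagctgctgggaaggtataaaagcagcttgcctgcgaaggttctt
TXNIP at chr1:145996601-145996829: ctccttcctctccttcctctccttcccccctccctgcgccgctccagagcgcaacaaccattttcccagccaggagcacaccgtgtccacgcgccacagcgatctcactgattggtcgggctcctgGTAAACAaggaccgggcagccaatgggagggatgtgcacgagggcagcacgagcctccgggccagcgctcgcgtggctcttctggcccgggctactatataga
The match began 180 bases before the RefSeq start of DEPP1 and 124 bases before 1 of the RefSeq starts of TXNIP. The printed stretches end 1 base before the RefSeq start in DEPP1 and 21 bases before it in TXNIP, so the match begins 179 and 103 bases from the end of what is printed. In PIK3IP1 the core lay on the opposite strand, 17 bases into the transcript of 1 of its 2 starts. KLHL24 held the CAAAACA core on the opposite strand, 32 bases before its RefSeq start. The GENCODE 29 gene begins further upstream, so that match lies inside it. PDK4, SESN3, CCNG2, INSR and BCL6 held neither set of letters in these windows. Among all 35116 windows of this length, 3.42% held GTAAACA and 4.92% held CAAAACA. A match describes letters only and is no evidence of binding.

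The libraries held between 21103757 and 26782810 counts in genes. Between 40.6% and 44.0% of the records of a library fell in no single gene, and the share that aligned to several places was 12.4% to 12.8% in control, 13.3% to 15.5% at 20 µM and 14.8% to 19.4% at 30 µM, a shift whose part in the results was not tested. All 12 hepatocyte markers looked at were present at a mean of at least 1 CPM (reads of a gene relative to the TMM-scaled size of its library) in every group, and their summed level was 34490 to 35820 CPM in control, 39100 to 39610 CPM at 20 µM and 44120 to 44720 CPM at 30 µM. Most of that sum was APOB (mean 19950, 21520 and 27770 CPM), and the markers did not move together. APOA2 went up (1439, 1949 and 2501 CPM). ALB (669, 537 and 485 CPM), AFP (1343, 1033 and 937.5 CPM) and FGB (614, 596 and 480 CPM) went down. Of the 7 leukocyte markers, 6 had a count, with sums of 451 to 497 CPM in control, 439 to 475 CPM at 20 µM and 638 to 668 CPM at 30 µM; nearly all of it was LYZ (mean 469, 452 and 655 CPM), and PTPRC had no count in any library. Of the 7 fibroblast markers, 5 had a count, with sums of 1.04 to 1.40 CPM in control, 1.06 to 1.50 CPM at 20 µM and 3.19 to 3.51 CPM at 30 µM; most of it was PDGFRB (mean 0.854, 1.16 and 3.01 CPM), and COL1A2 and DCN had no count. All 6 endothelial markers had a count, with sums of 4.49 to 5.54, 4.90 to 6.42 and 3.96 to 4.83 CPM in the same order, CDH5 being the highest (mean 2.74, 4.38 and 1.87 CPM). The part of these shifts in the results was not tested. In bulk RNA, a change per cell and a change in the share of cells with the transcript cannot be told apart. Scaling by library size alone in place of TMM moved the median log2 change of all genes by -0.21 at 30 µM against control and by -0.19 at 30 µM against 20 µM, which is as large as the smallest steps between doses described here. On that scaling the genes called at 30 µM were 3530 higher and 8022 lower against control, in place of 5192 and 5515, and 3029 higher and 7690 lower against 20 µM, in place of 4942 and 5099.

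Every one of the 10 members had a higher level at 20 µM than in control, and at 30 µM 9 of the 10 were above control while SESN3 was not. The members then parted by dose. DEPP1, KLHL24, FBXO32, TXNIP, INSR and BCL6 stepped up at each dose, with no library of one group reaching into the next. PDK4, PIK3IP1 and CCNG2 were higher at 20 µM and their 30 µM libraries overlapped the 20 µM ones. SESN3 was higher at 20 µM and back at about the control level at 30 µM. Counted by the test used for all genes (edgeR quasi-likelihood, Benjamini-Hochberg adjusted p under 0.05), 10 members were higher at 20 µM against control, 9 higher at 30 µM against control, and 6 higher and 1 lower at 30 µM against 20 µM. The test called 34.2% of all genes at 20 µM (17.2% higher, 16.9% lower), 60.8% at 30 µM (29.5% higher, 31.3% lower) and 57% between the doses (28% higher, 28.9% lower). Groups that did not overlap were found for 44.5%, 65% and 61.1% of all genes (22.4%, 31.3% and 29.7% in the upward direction). Since the members were picked on the same levels, nothing is read from their share. The median log2 change of the members was 1.31 at 20 µM and 1.73 at 30 µM against control, beside 0.01 and -0.04 over all genes tested. The upward step at each dose was met by 6 members and by 9.43% of all genes tested, and a downward step at each dose by 0 members and 9.01% of all genes. Called higher at both doses and not called between them were 3 members (PDK4, PIK3IP1 and CCNG2) and 3.14% of all genes. With library size alone the upward step was met by 3 members, DEPP1, FBXO32 and TXNIP (6.29% of all genes), and without control 1, 20 µM library 3 and 30 µM library 3, which deviate together, by 7, CCNG2 joining (12.7% of all genes).

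**Figure D1:**
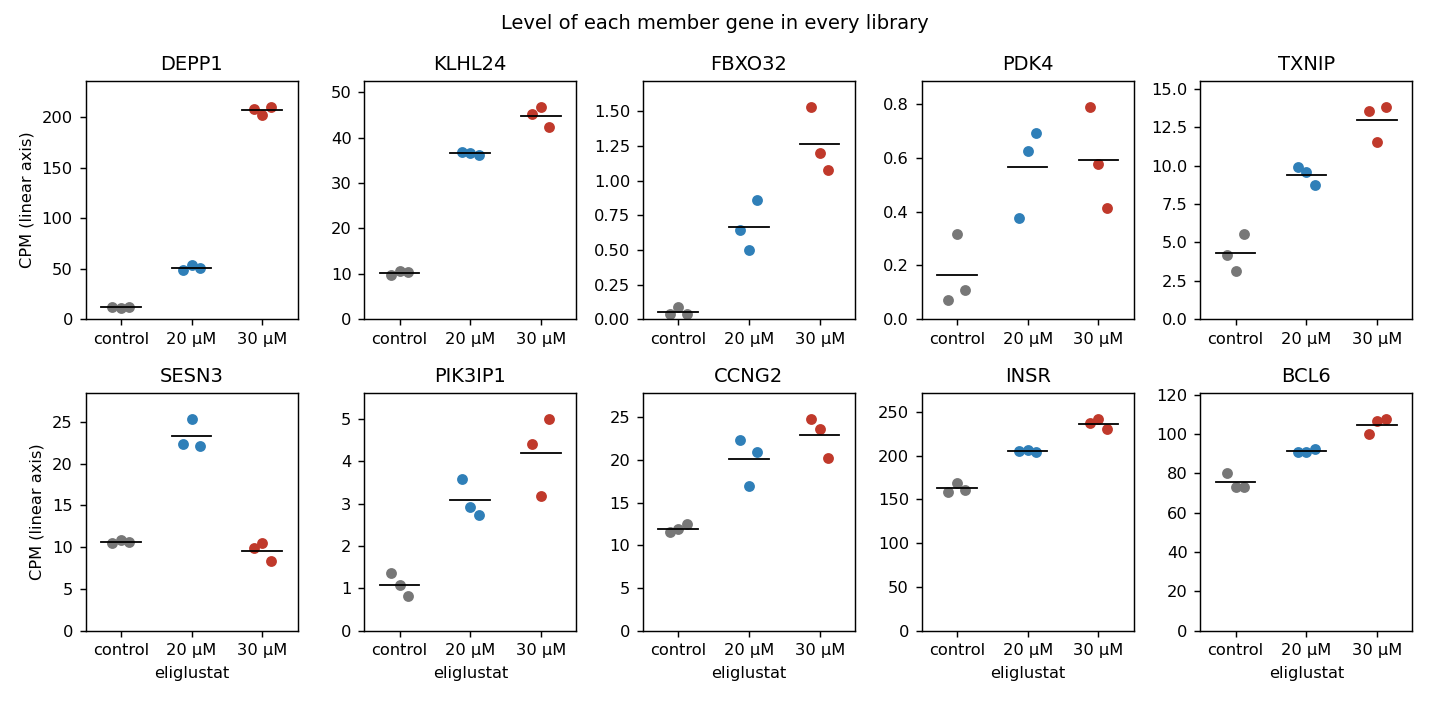
CPM (TMM-scaled, linear axes that start at 0 and differ between panels) of the 10 members in each of the 9 libraries; points are libraries and black bars are group means of 3. DEPP1 climbs to a mean of 207 CPM at 30 µM, SESN3 peaks at 20 µM with 23.2 CPM, and the PDK4 libraries at 20 and 30 µM overlap.

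INSR and PIK3IP1 act at the top of the pathway. INSR encodes the insulin receptor and lies at chr19:7112255-7294034 (GRCh38, GENCODE 29, as for all gene positions given here). It had 158, 169 and 160.3 CPM in the control libraries, 205, 206 and 204 CPM at 20 µM and 237, 242 and 230.2 CPM at 30 µM. The 3 groups did not overlap, and the steps were small beside those of other members. The log2 change was 0.33 ± 0.0355 for the lower dose over control, 0.54 ± 0.0354 for the higher dose over control and 0.20 ± 0.0352 between the doses (edgeR estimate ± SE, as in all such values below), or 1.26-fold and 1.45-fold against control. With library size alone the step between the doses was 0.01. PIK3IP1, at chr22:31281593-31292534, encodes a membrane protein that binds and inhibits the catalytic subunit of PI3-kinase. It was low, with 1.36, 1.08 and 0.826 CPM in the control libraries, 3.59, 2.92 and 2.73 CPM at 20 µM and 4.40, 3.18 and 5.00 CPM at 30 µM. All treated libraries exceeded all controls, whereas the second 30 µM library lay within the range at 20 µM. Its log2 change was 1.50 ± 0.228 for the lower dose over control, 1.94 ± 0.224 for the higher dose over control and 0.44 ± 0.198 between the doses. The last of these was 0.29 without 30 µM library 3 and 0.21 without the 3 libraries named above, and it was called with 0.61 without 30 µM library 2, with 0.56 without 20 µM library 1, without control 1, with median-ratio factors and with only the groups compared. The antisense gene PIK3IP1-AS1 overlaps its exons with 0 to 8 counts in a library.

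PDK4 and TXNIP shift fuel use away from glucose. PDK4, at chr7:95583499-95596491, encodes a kinase that switches off pyruvate dehydrogenase in fasting. Its counts were 2, 7 and 3 in control, 10, 15 and 17 at 20 µM and 17, 14 and 10 at 30 µM, or 0.0717, 0.316 and 0.108 CPM in the control libraries, 0.378, 0.626 and 0.694 CPM at 20 µM and 0.787, 0.578 and 0.413 CPM at 30 µM. Treated libraries were above control and the doses could not be separated. From summed counts, the level was 3.64 times control at 20 µM (exact 95% interval 1.88 to 7.59, from 42 and 12 counts) and 3.80 times control at 30 µM (1.96 to 7.94, from 41 and 12 counts), while 30 µM stood at 1.04 times 20 µM (0.662 to 1.65). These intervals cover counting error only. PDK4 was picked with its levels known and reached the count minimum only through treated libraries, so they test no difference. The fitted log2 change at 20 µM against control was 1.82 ± 0.546, and 2.59 without control 2, the control with the most PDK4 counts. It was no longer called without control 1 (1.45), without control 3 (1.59) and without the 3 libraries named above (1.28).

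TXNIP, at chr1:145992435-145996600, encodes an arrestin-like protein that binds thioredoxin and restrains glucose uptake. It had 4.16, 3.11 and 5.57 CPM in the control libraries, 9.93, 9.56 and 8.73 CPM at 20 µM and 13.6, 11.6 and 13.8 CPM at 30 µM. The groups did not overlap, although the controls themselves ranged widely. The log2 change was 1.12 ± 0.143 for the lower dose over control, 1.58 ± 0.141 for the higher dose over control and 0.46 ± 0.130 between the doses, so that TXNIP stood at 2.17 times control at 20 µM and 2.99 times control at 30 µM. With library size alone the step between the doses was 0.27 and was not called.

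FBXO32 and KLHL24 are substrate adaptors of ubiquitin ligases. FBXO32 (atrogin-1, known from wasting muscle), at chr8:123497889-123541206, was close to absent in untreated cells. Its counts were 1, 2 and 1 in control, 17, 12 and 21 at 20 µM and 33, 29 and 26 at 30 µM, which is 0.0359, 0.0901 and 0.0359 CPM in control, 0.642, 0.501 and 0.857 CPM at 20 µM and 1.53, 1.20 and 1.07 CPM at 30 µM. Each group was clear of the next. Summed over libraries, the level at 20 µM was 13.0 times control (exact 95% interval 4.77 to 49.5, from 50 and 4 counts) and at 30 µM 24.5 times control (9.22 to 91.8, from 88 and 4 counts). The level at 30 µM was 1.88 times that at 20 µM (1.32 to 2.72). These intervals, too, cover counting error only. FBXO32 was picked in the same way as PDK4, so they test no difference. FBXO32 was no longer called between the doses without 20 µM library 1 or 2, without 30 µM library 1 or 2, with library size alone, with no low-count filter and with DESeq2.

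KLHL24, a CUL3 ligase adaptor known for keratin turnover in skin, lies at chr3:183635568-183684477. It had 9.83, 10.6 and 10.3 CPM in the control libraries, 37.0, 36.8 and 36.3 CPM at 20 µM and 45.2, 46.7 and 42.4 CPM at 30 µM. Replicates were tight, and most of the difference from control was present at the lower dose. The log2 change was 1.84 ± 0.0664 for the lower dose over control, 2.13 ± 0.0659 for the higher dose over control and 0.29 ± 0.0576 between the doses, or 3.58-fold and 4.37-fold against control. Of its log2 change at 30 µM, 86.5% was reached at 20 µM, compared with 50.7% for DEPP1. With library size alone the step between doses was 0.09.

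DEPP1 and SESN3 are linked to autophagy and nutrient sensing, and they took opposite courses between the doses. DEPP1, at chr10:44970981-44978810, encodes a FOXO-induced protein that has been tied to autophagy and peroxisomes. It had 12.4, 11.3 and 12.2 CPM in the control libraries, 48.6, 53.8 and 50.4 CPM at 20 µM and 209, 202 and 209.6 CPM at 30 µM. The level multiplied by about the same factor at each step: the log2 change was 2.08 ± 0.0550 for the lower dose over control, 4.11 ± 0.0525 for the higher dose over control and 2.02 ± 0.0444 between the doses, or 4.24-fold at 20 µM, 17.2-fold at 30 µM and 4.06-fold between them. The counting strand is not given in the sources used here, and exons of RASSF4, on the other strand, overlap DEPP1. RASSF4 went the other way, with 113 ± 3.51 CPM in control, 102 ± 1.17 CPM at 20 µM and 57.7 ± 1.14 CPM at 30 µM (SD, n = 3 each), and it fell by 0.97 on the log2 scale at 30 µM against control.

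SESN3, at chr11:95165513-95232541, encodes a sestrin, a stress-induced protein that restrains mTORC1. It had 10.5, 10.8 and 10.6 CPM in the control libraries, 22.3, 25.3 and 22.1 CPM at 20 µM and 9.95, 10.4 and 8.30 CPM at 30 µM. The 20 µM libraries stood far above both other groups, and the 30 µM libraries lay just under the controls. The log2 change was 1.12 ± 0.0888 for the lower dose over control, -0.16 ± 0.0964 for the higher dose over control and -1.28 ± 0.0909 between the doses. At 30 µM the level was thus 2.43-fold below that at 20 µM. The small difference between 30 µM and control was past the threshold only with upper-quartile factors (-0.22) and with library size alone (-0.37), and it shrank to -0.06 without 30 µM library 3 and to -0.08 without the 3 libraries named above. Levels above control at 20 µM and below the 20 µM level at 30 µM, with no overlap, were found for 1 member and for 7.64% of all genes tested. Its antisense neighbour AP000787.1 had at most 7 counts in a library.

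CCNG2 and BCL6 act on proliferation and transcription. CCNG2, at chr4:77157151-77433388, encodes cyclin G2, an unconventional cyclin that accompanies cell cycle arrest. It had 11.5, 11.9 and 12.5 CPM in the control libraries, 22.4, 17.0 and 20.9 CPM at 20 µM and 24.8, 23.6 and 20.3 CPM at 30 µM. Both doses were clear of control and overlapped each other. Its log2 change was 0.75 ± 0.0939 for the lower dose over control, 0.93 ± 0.0935 for the higher dose over control and 0.19 ± 0.0892 between the doses, and the difference between the doses had its sign turned by library size alone (-0.01). That difference was 0.08 without 20 µM library 2, and it was called with 0.27 without 20 µM library 1 or 30 µM library 3, with 0.29 without the 3 libraries named above, with median-ratio factors and with no low-count filter. BCL6, at chr3:187721377-187745727, encodes a transcriptional repressor best known from germinal centre B cells. It had 80.1, 73.3 and 73.2 CPM in the control libraries, 90.8, 90.8 and 92.6 CPM at 20 µM and 99.9, 106 and 108 CPM at 30 µM. The groups were separate at each dose, with the smallest fold at 30 µM among the members above control. The log2 change was 0.27 ± 0.0442 for the lower dose over control, 0.47 ± 0.0440 for the higher dose over control and 0.20 ± 0.0436 between the doses, and the step between doses was 0.00 with library size alone.

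**Figure D2:**
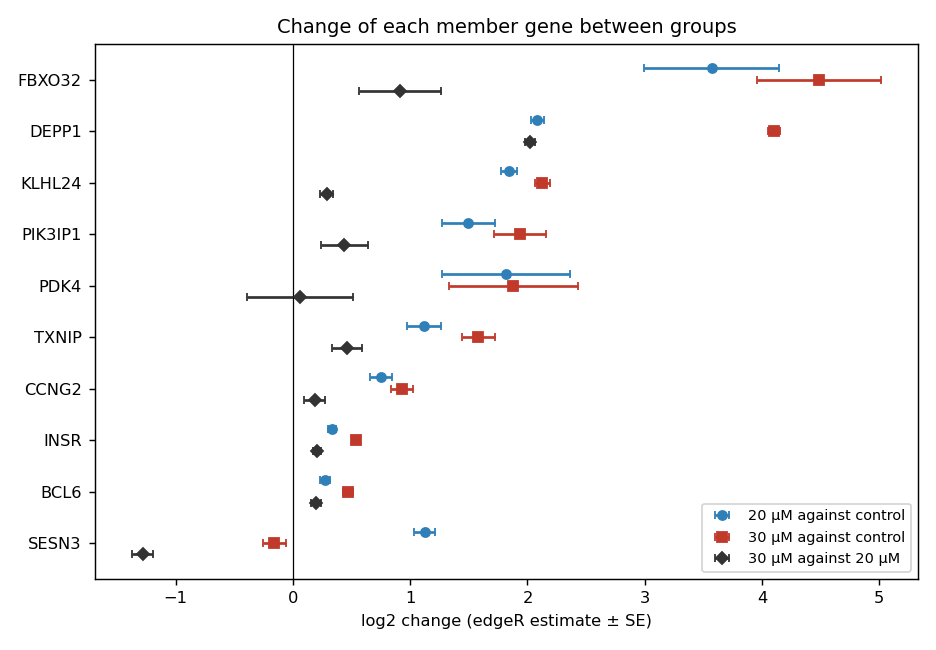
log2 change of the 10 members (edgeR estimate, bars are SE) for 20 µM against control (blue circles), 30 µM against control (red squares) and 30 µM against 20 µM (dark diamonds). DEPP1 shows a step of 2.02 between the doses, KLHL24 one of 0.29, and SESN3 one of -1.28; the bars of PDK4 and FBXO32 are the widest.

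Set per kilobase of exon (GENCODE 29), the order of the members changed with dose. The release used for counting is not given, and 58264 of the 62703 identifiers are in GENCODE 29. These lengths may therefore differ from the exons counted, a limit the SDs do not cover. In control, INSR led with 15.6 ± 0.553 CPM per kilobase (SD, n = 3, as for the other levels here), followed by BCL6 with 12.7 ± 0.669, DEPP1 with 4.02 ± 0.199 and CCNG2 with 1.60 ± 0.0643. KLHL24 with 1.18 ± 0.0448, TXNIP with 1.18 ± 0.340 and SESN3 with 1.01 ± 0.0132 CPM per kilobase came next, TXNIP not differing from either beyond its spread. PIK3IP1 with 0.287 ± 0.0705, PDK4 with 0.0365 ± 0.0291 and FBXO32 with 0.00730 ± 0.00424 CPM per kilobase closed the order, the last pair not differing beyond their spread. At 20 µM, INSR with 19.6 ± 0.125, DEPP1 with 17.1 ± 0.884 and BCL6 with 15.4 ± 0.173 CPM per kilobase led. KLHL24 (4.24 ± 0.0405), CCNG2 (2.69 ± 0.374), TXNIP (2.60 ± 0.169) and SESN3 (2.20 ± 0.170) followed. CCNG2 did not differ from TXNIP or from SESN3 beyond their spread. PIK3IP1 (0.810 ± 0.118), PDK4 (0.125 ± 0.0369) and FBXO32 (0.0901 ± 0.0242) were lowest, and the last pair did not differ beyond their spread. At 30 µM, DEPP1 stood first with 69.4 ± 1.31 CPM per kilobase, ahead of INSR with 22.6 ± 0.547 and BCL6 with 17.6 ± 0.704. KLHL24 followed with 5.17 ± 0.254 CPM per kilobase, then TXNIP with 3.58 ± 0.340 and CCNG2 with 3.06 ± 0.312, which did not differ beyond their spread. PIK3IP1 with 1.10 ± 0.244 and SESN3 with 0.904 ± 0.106 CPM per kilobase did not differ beyond their spread. FBXO32 with 0.171 ± 0.0318 and PDK4 with 0.131 ± 0.0415 CPM per kilobase were last and did not differ beyond their spread.

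Likeness to the 3 members with the largest change at 30 µM was measured as the distance between profiles of log2 CPM minus the control mean over the 9 libraries, among 10348 protein-coding genes of at least 5 CPM in a group. Nearest to DEPP1 were FOS (distance 0.343), an immediate early transcription factor, AQP3 (0.768), a water and glycerol channel, and EGR1 (0.894), another immediate early factor. Nearest to KLHL24 were YPEL3 (0.861), OTUD1 (1.10), a deubiquitinase, and NT5DC4 (1.11). For FBXO32 they were IL17B (1.18), TCP11L2 (1.45) and TNFSF14 (1.70), set against a profile that rests on at most 33 counts in a library. Among the members, INSR and BCL6 had the closest profiles (0.250). These distances are descriptions, since all genes share the same 9 libraries.

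The relatives of the members, taken from lists assembled with earlier results of these data known, did not all share their course. In this and the later lists, genes not fixed by name were named for passing the threshold with a large change at 30 µM. Their adjusted p-values at 30 µM against control were under 0.05 by that choice and are descriptions. Of 25 relatives and partners tested, 11 were higher and 5 lower at 20 µM, and 13 higher and 8 lower at 30 µM against control, where library size alone gave 9 higher and 12 lower. Called in either direction were 64% and 84% of them, beside 34.2% and 60.8% of all genes tested (17.2% and 29.5% higher). Nothing is read from these shares here or in the later lists, since the lists were chosen with earlier results known. Among the sestrins, SESN2 rose at both doses, to 41.1 ± 1.24 CPM at 20 µM (log2 0.43 ± 0.0580, edgeR adjusted p = 3.31e-07) and 49.4 ± 3.09 CPM at 30 µM (log2 0.69 ± 0.0576, adjusted p = 1.75e-12), against 30.5 ± 1.46 CPM in control (SD, n = 3). SESN1 fell to 18.0 ± 1.36 CPM at 30 µM, against 37.6 ± 1.27 CPM in control (log2 -1.06 ± 0.0644, edgeR adjusted p = 5.49e-16), and was at log2 -0.11 at 20 µM (adjusted p = 0.155). The 3 sestrins thus held 3 different courses.

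Among the pyruvate dehydrogenase kinases, PDK1 had 43.3 ± 0.865 CPM at 30 µM against 38.0 ± 1.94 CPM in control (log2 0.19 ± 0.0566, edgeR adjusted p = 0.00510, and -0.02 with library size alone). PDK2 rose at 20 µM (log2 0.53 ± 0.0827, edgeR adjusted p = 3.68e-06), was at -0.07 at 30 µM against control (adjusted p = 0.501) and fell by 0.60 at 30 µM against 20 µM (adjusted p = 1.91e-07). PDK3 was at 0.10 at 20 µM (edgeR adjusted p = 0.235) and fell at 30 µM (log2 -0.57 ± 0.0650, adjusted p = 2.57e-09). PDP1, a phosphatase that reactivates the dehydrogenase, rose at 30 µM to 11.2 ± 1.29 CPM, against 4.33 ± 0.187 CPM in control (log2 1.36 ± 0.132, adjusted p = 7.03e-11). At 20 µM PDP1 was past the threshold at log2 0.36, a call lost in 11 of 19 alternatives. Per kilobase of exon, the level of PDK4 at 30 µM (0.131 ± 0.0415 CPM per kilobase) was below that of PDK1 (2.91 ± 0.0581), PDK2 (2.79 ± 0.211) and PDK3 (4.16 ± 0.0511).

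ARRDC2, an alpha-arrestin like TXNIP, rose at 30 µM to 12.5 ± 0.768 CPM, against 2.64 ± 0.483 CPM in control (log2 2.23 ± 0.140, edgeR adjusted p = 1.35e-15). At 20 µM ARRDC2 was past the threshold at log2 0.44, a call lost in 7 of 19 alternatives. ARRDC4, the alpha-arrestin that shares MondoA control with TXNIP, had 1, 5 and 8 counts in control, 11, 6 and 5 at 20 µM and 6, 14 and 13 at 30 µM, and the groups overlapped. It reached the count minimum only through treated libraries, and its place among the 13 relatives called higher at 30 µM was lost in 13 of 17 alternatives. CCNG1, the paralogue of CCNG2, was at -0.00181 at 20 µM (edgeR adjusted p = 0.982) and fell at 30 µM (log2 -0.33 ± 0.0425, adjusted p = 7.14e-08). CCNI, a related cyclin, rose at both doses (log2 0.29 ± 0.0347 and 0.65 ± 0.0346, adjusted p = 2.69e-08 and 1.55e-17).

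**Figure D3:**
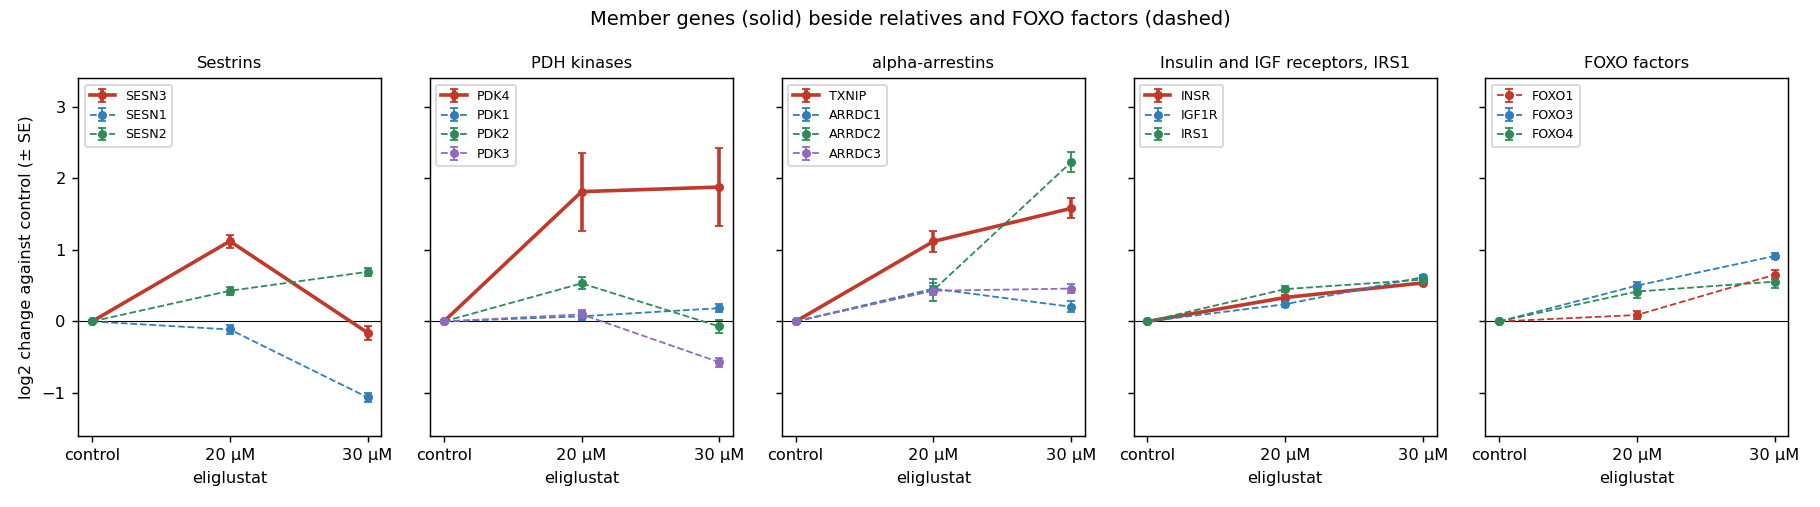
log2 change against control (points ± SE, control set to 0) by dose for members (solid lines) and their relatives, the IGF1 receptor, IRS1 and the FOXO factors (dashed lines). SESN3 and PDK2 peak at 20 µM, SESN1 and PDK3 end below control, and INSR, IGF1R and IRS1 run close together to between 0.54 and 0.62 at 30 µM.

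FOXO3 and FOXO4 were higher at both doses and FOXO1 at 30 µM. FOXO3 rose at both doses, with 51.8 ± 1.56 CPM in control, 73.3 ± 3.59 CPM at 20 µM and 97.7 ± 1.92 CPM at 30 µM (SD, n = 3 each); its log2 change was 0.50 ± 0.0462 at 20 µM (edgeR adjusted p = 1.39e-10) and 0.92 ± 0.0458 at 30 µM (adjusted p = 3.18e-18). FOXO4 rose as well, to 14.3 ± 0.495 CPM at 20 µM and 15.7 ± 0.652 CPM at 30 µM against 10.7 ± 0.724 CPM in control (log2 0.42 ± 0.0875 and 0.56 ± 0.0873, adjusted p = 2.51e-04 and 1.31e-06). FOXO1, the main FOXO of liver, was at 0.09 at 20 µM (adjusted p = 0.296) and rose at 30 µM to 39.9 ± 1.62 CPM, against 25.3 ± 1.23 CPM in control (log2 0.65 ± 0.0612, adjusted p = 3.21e-11). FOXO6 had at most 10 counts in a library and was not tested. FOXO activity is set mainly by phosphorylation and location, which RNA counts do not show.

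Of the 26 FOXO factors and regulators tested, 4 were higher and 9 lower at 20 µM, and 17 higher and 7 lower at 30 µM against control. That is 50% and 92.3% called in either direction, beside 34.2% and 60.8% of all genes tested (17.2% and 29.5% higher). SFN, the 14-3-3 sigma protein, was at 0.12 at 20 µM (edgeR adjusted p = 0.0848) and rose 5.54-fold at 30 µM, to 182 ± 9.67 CPM against 32.8 ± 0.826 CPM in control (log2 2.47 ± 0.0491, adjusted p = 2.71e-29). SKP2, a ligase subunit that marks FOXO1 for breakdown and also drives S phase entry, fell at both doses, by 0.59 and 1.84 on the log2 scale (adjusted p = 1.94e-13 and 5.58e-27). PRKAA2, a catalytic subunit of AMPK, rose at 30 µM (log2 1.20 ± 0.0556, adjusted p = 3.90e-19) and so did STK3, a kinase of the Hippo pathway (log2 0.60 ± 0.0833, adjusted p = 1.33e-07). At 20 µM STK3 was at 0.22 (adjusted p = 0.0395), a call lost in 9 of 19 alternatives.

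In insulin, PI3-kinase and AKT signalling, 15 of 32 genes tested were higher and 1 lower at 20 µM, and 18 higher and 5 lower at 30 µM against control (15 and 13 with library size alone). Called in either direction were 50% and 71.9%, beside 34.2% and 60.8% of all genes tested (17.2% and 29.5% higher). IGF1R, the receptor closest to INSR, rose to 309.7 ± 7.65 CPM at 20 µM and 403 ± 9.06 CPM at 30 µM, against 262 ± 3.39 CPM in control (log2 0.24 ± 0.0325 and 0.62 ± 0.0325, edgeR adjusted p = 3.24e-07 and 1.08e-17). IRS1, the adaptor of both receptors, rose by 0.45 ± 0.0426 and 0.59 ± 0.0425 (adjusted p = 2.28e-10 and 6.32e-14). IRS2, the other main adaptor and a known FOXO target, was listed at 0 in all 9 libraries, and the cause was not tested. TRIB3, a pseudokinase that binds AKT, rose 1.37-fold and 2.82-fold, and GRB10, an adaptor that inhibits the insulin receptor, 1.40-fold and 2.54-fold, at 20 and 30 µM (adjusted p at 30 µM = 2.68e-27 and 7.54e-22). RICTOR, a subunit of the kinase complex that activates AKT, rose at both doses (log2 0.20 ± 0.0524 and 1.35 ± 0.0510, adjusted p = 0.00395 and 3.17e-19). PIK3CA, a catalytic subunit of PI3-kinase, also rose at both doses (log2 0.21 ± 0.0615 and 1.14 ± 0.0592, adjusted p = 0.00594 and 9.96e-18). PHLPP2, a phosphatase of AKT, was at 0.06 at 20 µM (adjusted p = 0.443) and rose at 30 µM against control (log2 0.92 ± 0.0556, adjusted p = 5.75e-16). PIK3R3, a regulatory subunit, rose at 20 µM (log2 0.28 ± 0.0794, adjusted p = 0.00597) and fell at 30 µM against control (log2 -0.91 ± 0.0868, adjusted p = 4.38e-11).

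The other genes known to be induced by FOXO also divided by dose. Of 35 listed, 30 were tested, 21 higher and 2 lower at 20 µM and 19 higher and 8 lower at 30 µM against control, with median log2 changes of 0.44 and 0.43. Called in either direction were 76.7% and 90%, beside 34.2% and 60.8% of all genes tested (17.2% and 29.5% higher). Upward steps at both doses without overlap were seen in 11 of the 30, and levels above control at 20 µM and below the 20 µM level at 30 µM, again without overlap, in 10 of the 30, beside 9.43% and 7.64% of all genes tested. Where these 10 ended relative to control differed between them. IGFBP1, an insulin-repressed secreted protein of liver, had 9.33 CPM in control, 74.7 CPM at 20 µM and 1211 CPM at 30 µM. Its change at 30 µM was larger than that of any member. At 20 µM the log2 change was 2.98 ± 0.217 for IGFBP1 and 3.57 ± 0.573 for FBXO32, the latter on 4 control counts in all. Over the alternatives these changes ranged from 2.74 to 3.41 and from 3.15 to 4.04, and the difference between them was not tested. GABARAPL1 and MAP1LC3B, which build autophagosomes, rose 10.3-fold and 3.52-fold at 30 µM against control (edgeR adjusted p = 1.12e-28 and 1.77e-28). The mitophagy genes BNIP3L and PINK1 rose 3.06-fold and 2.88-fold (adjusted p = 2.50e-17 and 6.89e-19), and GADD45B, a stress gene, 7.25-fold (adjusted p = 2.26e-18). Named after their values were seen, the death ligand TNFSF10 was at log2 0.72 ± 0.172 at 20 µM and -0.76 ± 0.193 at 30 µM against control, and APOC3, an apolipoprotein, at 0.75 ± 0.0644 and -0.23 ± 0.0666 (all 4 past the threshold). Of the gluconeogenic genes, G6PC1 had at most 11 counts in a library and was not tested, and PCK1, on 8 to 27 counts, was at 0.50 at 20 µM and -0.53 at 30 µM against control (adjusted p = 0.300 and 0.249). TRIM63, the muscle partner of FBXO32 in wasting, had no count in any library.

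Of 4 FOXO-repressed genes tested, 0 were higher and 2 lower at 20 µM, and 1 was higher and 2 lower at 30 µM against control. Among all genes tested, 16.9% were called lower at 20 µM and 31.3% at 30 µM, and 17.2% and 29.5% higher. FOXM1, a proliferation factor, fell at both doses (log2 -0.54 ± 0.0436 and -1.24 ± 0.0451, edgeR adjusted p = 3.29e-11 and 2.67e-20). ID1, an inhibitor of differentiation factors, rose at 30 µM (log2 0.58 ± 0.0383, adjusted p = 4.31e-15). CCND1, or cyclin D1, fell by 0.12 at 30 µM (adjusted p = 0.00152), and its value at 20 µM, -0.08 (adjusted p = 0.0477), was past the threshold on TMM scaling and not on median-ratio scaling (adjusted p = 0.0697; range over its alternatives 0.0140 to 0.182); that call was lost in 14 of 19 alternatives. CCND2 was at 0.01 at 30 µM (adjusted p = 0.968).

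**Figure D4:**
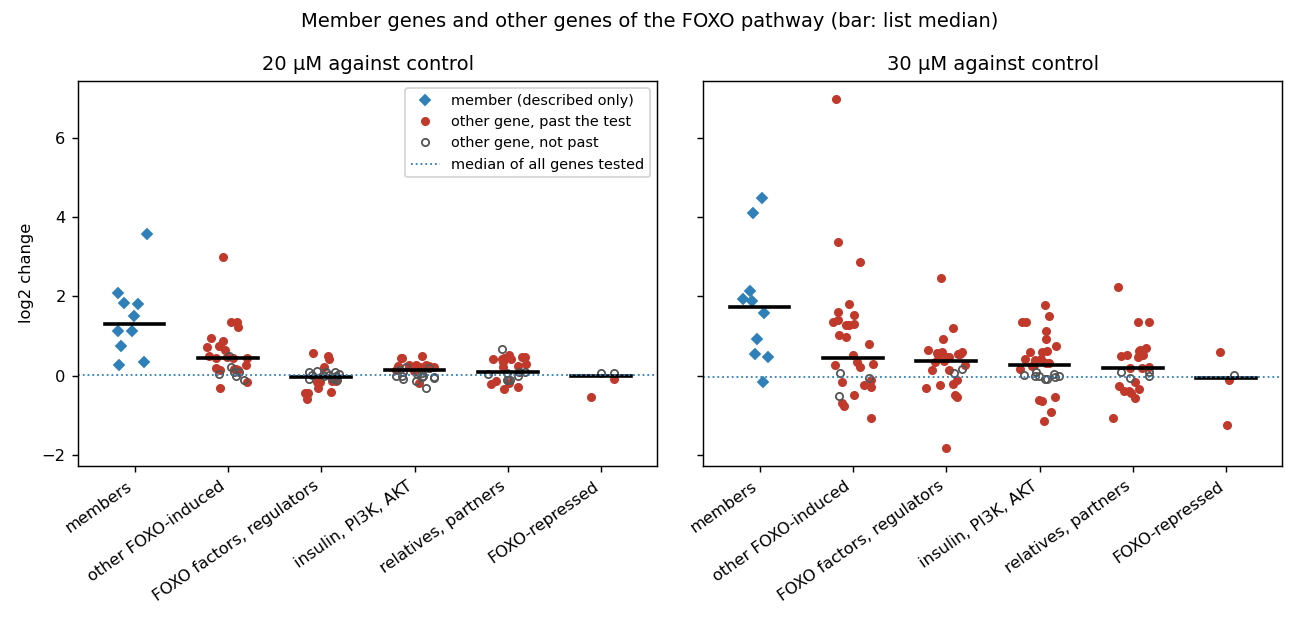
log2 change at 20 µM (left) and 30 µM (right) against control of each tested gene of the member list (blue diamonds) and of 5 other lists. These hold FOXO pathway genes or relatives and partners of the members, and a gene in several lists is drawn in each. Filled red points passed the test and open points did not. Black bars are list medians and the dotted line is the median of all genes tested. At 20 µM the members' median is 1.31 and that of the other FOXO-induced genes 0.44, and the highest point at 30 µM is IGFBP1.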

How the data were processed

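Total RNA of HepG2 cells was sequenced in 9 libraries. The authors deposited raw read counts per gene, 1 file per library, made with FastQC, STAR 2.7.10a and HTSeq on hg38, per the submitters' processing notes. Annotation release and counting strand: not given in the sources used here. The labels give the molecule as polyA RNA but describe a kit that depletes ribosomal RNA, and the series text adds a further incubation that may or may not apply. The 5 closing HTSeq totals, 40.6% to 44.0% of records, were left out of library sizes and tests.

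Members and lists were chosen with earlier results of these data known. Some genes, such as RICTOR, SESN1 and IGF1R, stand in several lists and count in each. Identifiers were matched to symbols for 62686 of 62703 genes, and positions and exon lengths came from GENCODE 29 (GRCh38). Genes kept by filterByExpr received TMM factors and entered 1 joint quasi-likelihood fit (edgeR 4.0.16, robust, R 4.3.3), adjusted by Benjamini-Hochberg over all 17623 genes at 0.05. The SE is the absolute log2 change divided by the square root of F. Likeness used log2 CPM with a prior count of 2. From each list, up to 6 genes past the threshold, with at least 5 CPM in a group and the largest change at 30 µM, were named, with 14 genes fixed by name; RASSF4, FOXO6, G6PC1, PCK1, TRIM63, TNFSF10, APOC3 and CCND2 were added after their values were seen. Libraries of the same group differed by more than counting noise (chi-square divided by genes: 2.06 to 7.74), so none was a duplicate. Alternatives were other scalings, filters and tests (DESeq2 1.42.0, limma 3.58.1 voom), only the groups compared, a block for the replicate number, and libraries left out.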

Additional observations from a re-analysis of the deposited data

How the results depend on the processing

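Over the alternatives, 530 of 561 recomputed log2 changes of members kept their direction and their side of the threshold. Of the others, 14 dropped below it, 12 rose past it and 5 changed sign. The members were picked with their levels known, so these counts and the calls below describe the fits and test no member. The sign changes were of PDK4 between the doses, to -0.0124 with upper-quartile factors, -0.127 with library size alone and -0.168 and -0.183 without 20 µM library 1 or 30 µM library 1 (-0.183 to 0.271 over single libraries left out), and of CCNG2 between the doses, to -0.0077 with library size alone. That scaling left 2 members called between the doses, DEPP1 and SESN3, in place of 7. Of all genes it called 3029 higher and 7690 lower between the doses, in place of 4942 and 5099. With each library left out in turn, 9 to 10, 9 and 6 to 8 members were called at 20 µM, at 30 µM and between the doses. Of all genes, 5273 to 6135, 10061 to 10850 and 9276 to 10113 were called in the same order. The PDK4 call at 20 µM was lost without control 1, control 3 or the 3 libraries that deviate together, DESeq2 gave it no adjusted p, and it was not tested with only the groups compared or with at least 50 counts, so that 9 members were called at 20 µM with DESeq2, 9 with only the groups compared and 8 with at least 50 counts, where FBXO32 was not tested either. All genes called at 20 µM were 5487 with DESeq2, 5984 with only the groups compared and 5944 with at least 50 counts. FBXO32 between the doses lost its call in 7 alternatives.

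Among other genes, CCNG1 at 20 µM turned to 0.00152 with median-ratio factors, 0.000436 with no low-count filter, 0.00409 with at least 50 counts, 0.00152 with DESeq2 and 0.0132 with upper-quartile factors, and was -0.0424 to 0.0437 without single libraries. PRKAA2 at 20 µM was -0.0281 to 0.0691 without single libraries and -0.0344 without the 3 libraries. PDK2 at 30 µM was -0.170 to 0.00683 without single libraries and 0.0468 without the 3. Library size alone turned FOXO4 and IRS1 between the doses to -0.0546 and -0.0602 and PDK1 to -0.0244 at 30 µM and -0.0799 between the doses. The FOXO-repressed genes called at 20 µM were 1 in place of 2 with median-ratio factors, upper-quartile factors, no low-count filter, only the groups compared and without the 3 libraries, and 1 to 2 with single libraries left out. Of all genes tested, 28% were called higher and 28.9% lower between the doses. These were 4942 and 5099 genes, but 4108 and 6067 with upper-quartile factors and 3029 and 7690 with library size alone. Between the doses, insulin pathway genes split 16 higher and 7 lower, but 14 and 11 with upper-quartile factors and 10 and 14 with library size alone; FOXO factors and regulators split 18 and 3, but 15 and 5, and 12 and 7; relatives and partners split 9 and 8, but 6 and 14 with library size alone; FOXO-repressed genes split 1 and 1, but 1 and 2 with either.

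With the replicate number as a block, the members called were 10, 9 and 7 as before, and FOXO-repressed genes called at 20 µM were 1. All genes called were 5952, 10635 and 9955, in place of 6020, 10707 and 10041, and nothing is read from the member counts. Libraries with the same number had deviations that correlated at -0.20 to 0.35, not above 0.1 in every pair, and were not taken as pairs; whether some shared more than a number was not established. The cause of these shifts was not tested. FBXO32 and PDK4, with at most 33 counts in a library, are limited by depth.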
